A study of Homo sapiens with 6 samples.

Results

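The 9 genes of pericellular plasminogen activation and of the tissue factor pathway were followed across the 6 RNA-seq libraries: PLAU, PLAUR, PLAT, SERPINE2, SERPINB2, F3, THBD, TFPI and TFPI2. They were chosen by name, for what their proteins do, with earlier results of these data known. The deposited table listed 15897 genes and held 8 of the 9. SERPINB2, a serpin that inhibits the plasminogen activators, was not listed. All libraries were labelled H1650, a human lung adenocarcinoma cell line, 3 of them as control libraries of wild type genotype and 3 as shSETD2 libraries. SETD2 is the methyltransferase that trimethylates lysine 36 of histone H3 on transcribed genes. By the methods of the study, the lines were made stable with lentiviral vectors carrying hairpins against SETD2. The study describes 3 hairpin constructs in H1650 cells. The labels name no hairpin, so whether the 3 shSETD2 libraries carry different constructs is unknown. They also do not say whether the 3 libraries of a group came from separate cultures. The p-values measure only the spread between these libraries, which may be technical or, in the shSETD2 group, may include differences between constructs.

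Urokinase (PLAU) and tissue-type plasminogen activator (PLAT) cut plasminogen to plasmin, a protease that dissolves fibrin and opens the extracellular matrix. Urokinase works mostly at the cell surface, held there by its receptor PLAUR, and serpins such as SERPINE2 and SERPINB2 block the activators. Tissue factor (F3) starts coagulation by binding factor VIIa, and TFPI shuts that complex down. TFPI2 is a related Kunitz inhibitor of the matrix that blocks plasmin, and thrombomodulin (THBD) turns thrombin towards activating protein C. In lung adenocarcinoma, urokinase and its receptor are known for their place in invasion, and tissue factor for its place in tumour-associated thrombosis.

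SETD2 was measured at 17.99, 10.2 and 17.6 FPKM (fragments per kilobase of transcript, scaled to the fragments mapped) in the control libraries and at 8.97, 8.09 and 12.2 FPKM in the shSETD2 libraries. The groups overlapped, and the difference did not pass the test used throughout (log2 fold change -0.58 ± 0.24 SE, limma adjusted p = 0.0641), so groups are named by their labels. Libraries of one group correlated at 0.982 to 0.990 on the log2 scale, and libraries of different groups at 0.701 to 0.707. These correlations were taken over the 14068 genes with a mean of at least 0.5 FPKM. Marker genes also differed. Of 12 lung epithelial markers 2 were listed, with summed levels of 2.11 to 2.46 FPKM in control and 2.19 to 2.94 FPKM in shSETD2 libraries, and they went opposite ways. NKX2-1 was at 1.44 to 1.80 FPKM in control and listed at 0 in every shSETD2 library, and MUC1 made up the whole shSETD2 sum (0.639 ± 0.133 against 2.65 ± 0.402 FPKM, SD, n = 3 each). Of 12 general epithelial markers 9 were listed, with sums of 16.5 to 17.7 FPKM against 402.1 to 454.5 FPKM. Keratins KRT18 (10.04 against 254.6 FPKM), KRT8 (2.86 against 93.9 FPKM) and KRT7 made up nearly all of the shSETD2 sum. Of the 9, 4 had a mean of at least 1 FPKM in control libraries and 3 in shSETD2 libraries. Keratin KRT7 was at most 0.0375 FPKM in any control library and at least 77.0 FPKM in every shSETD2 library, while CDH1, the epithelial cadherin, was at 0.860 to 1.52 FPKM against at most 0.0140 FPKM. Of 12 genes common in embryonic kidney lines 11 were listed, with sums of 172.4 to 190.2 FPKM against 143.7 to 153.2 FPKM, and NEFM, LIN28B, SALL1, EYA1, SIX2, INA and NEFL were listed at 0 in all shSETD2 libraries. PAX2 (0.739 against 9.93 FPKM), LHX1 (0.802 against 4.65 FPKM) and VIM were higher in every shSETD2 library, and VIM, which is also on the fibroblast list, made up most of the shSETD2 sum (66.5 ± 8.84 against 132.4 ± 4.58 FPKM). Endothelial markers (3 of 12 listed) summed to 6.49 to 7.61 FPKM against 50.9 to 58.2 FPKM, with PECAM1, CDH5, VWF and KDR not listed. Most of the shSETD2 sum was ESAM (0.414 ± 0.128 against 45.5 ± 3.24 FPKM). EGFL7 was at 6.68 against 8.86 FPKM and ROBO4 at 0.00516 against 0.789 FPKM. Fibroblast markers (5 of 11 listed) summed to 65.1 to 80.7 FPKM against 129.1 to 137.8 FPKM, nearly all of it VIM, while the means of the other 4 were lower in shSETD2 libraries (COL1A1 2.78 against 0.269 FPKM). Blood markers (3 of 12 listed) summed to 1.46 to 1.92 FPKM against 1.91 to 2.24 FPKM. These differences ran with the labels. Whether both groups are the same cell line was not tested. SETD2 depletion and any other difference between the 2 sets of libraries cannot be told apart, and the part of the markers in the results below was not tested. In bulk RNA, fewer cells of a type and less RNA per cell cannot be told apart either.

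Of the 7 listed members whose mean FPKM reached 0.5, 6 were higher and 1 was lower in shSETD2 libraries, by limma with a Benjamini-Hochberg adjusted p under 0.05. Of all 14068 genes tested, 26.8% were called higher and 51.8% lower. Counted by libraries that do not overlap between the groups, the members again gave 6 higher and 1 lower, against 27.9% of all genes higher and 53.0% lower. The median log2 fold change was 1.47 over the 7 members and -0.29 over all genes tested. Each of the 7 had a mean above 0.5 FPKM in both groups. Scaling the libraries to a common median ratio moved the median of all genes to 0.00, a shift of about 0.29, and the calls over all genes from 3774 higher and 7283 lower to 5343 higher and 5274 lower of 13969. Quantile normalization gave 4706 higher and 5875 lower. Relative to the median of all genes, the member changes on the log2 scale were 7.72 for PLAU, 6.30 for TFPI2, 3.28 for TFPI, 1.76 for PLAUR, 1.09 for F3, 1.00 for SERPINE2 and -0.55 for PLAT.

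**Figure D1:**
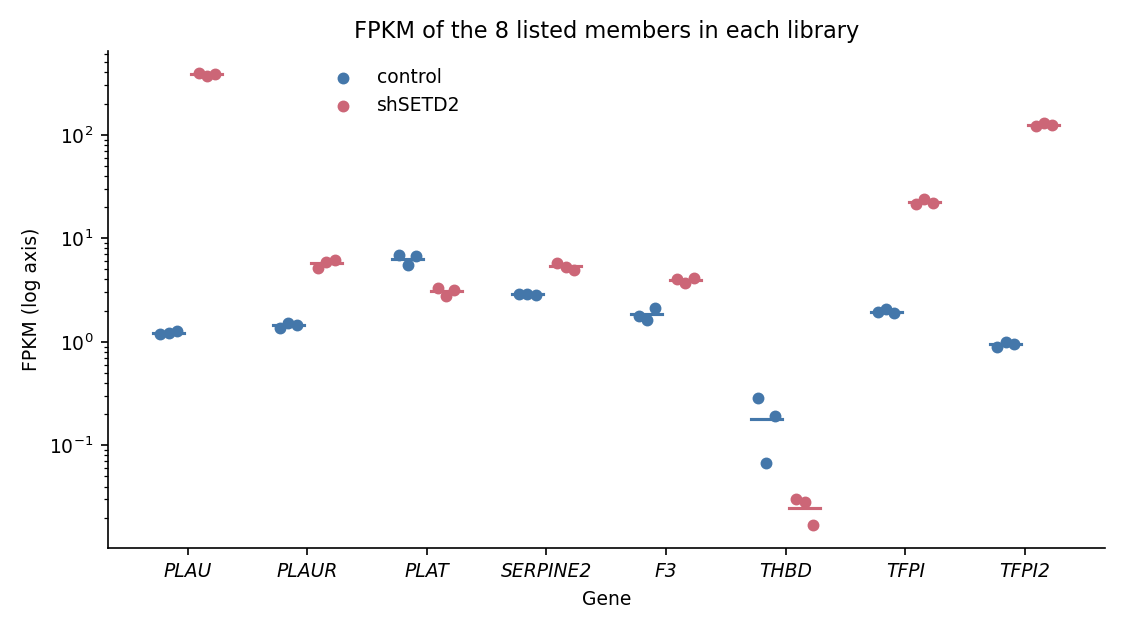
Level of each listed member in each library, as FPKM on a log axis, with control and shSETD2 libraries as separate points and a bar at each group mean. PLAU and TFPI2 lie near 1 FPKM in control libraries and above 100 FPKM in shSETD2 libraries, and PLAT is the only tested member that is higher in control libraries.

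PLAU (ENSG00000122861.15_2, GRCh37 chromosome 10, 75668935 to 75677255, plus strand) encodes urokinase, the activator of the cell surface. Its level was 1.19, 1.22 and 1.27 FPKM in control libraries and 392, 367 and 388 FPKM in shSETD2 libraries. All shSETD2 libraries stood far above all control libraries, and the spread within a group was small (coefficient of variation 3.08% in control and 3.46% in shSETD2). The means were 1.23 ± 0.0377 FPKM and 382.6 ± 13.2 FPKM (SD, n = 3 each), a 312-fold difference. On the log2(FPKM + 1) scale the change was 7.43 ± 0.041 (SE), with a 95% interval of 7.33 to 7.53 (limma adjusted p = 1.95e-09). PLAU ranked 34 among all 15897 listed genes in shSETD2 libraries and 12089 in control libraries, and its rise was number 10 in size among the genes tested.

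PLAUR (ENSG00000011422.11_3, chromosome 19, 44150247 to 44174699, minus strand) encodes the urokinase receptor, a protein anchored in the membrane by a lipid tail. Its level was 1.37, 1.504 and 1.47 FPKM in control and 5.21, 5.88 and 6.24 FPKM in shSETD2 libraries. Every shSETD2 library exceeded every control library. The means were 1.45 ± 0.0710 FPKM and 5.77 ± 0.522 FPKM (SD, n = 3 each), a change of 1.47 ± 0.073 (SE) on the log2(FPKM + 1) scale (limma adjusted p = 3.98e-06). The receptor rose as its ligand did, but reached a far lower level. The ratio of PLAU to PLAUR was 0.812 to 0.872 in control libraries and 62.3 to 75.3 in shSETD2 libraries.

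PLAT, the tissue-type activator (ENSG00000104368.17_3, chromosome 8, 42032751 to 42065242, minus strand), changed in the opposite direction. Its level was 6.83, 5.46 and 6.72 FPKM in control and 3.29, 2.79 and 3.15 FPKM in shSETD2 libraries. The lowest control library still exceeded the highest shSETD2 library. The means were 6.34 ± 0.759 FPKM and 3.08 ± 0.261 FPKM (SD, n = 3 each), so PLAT was 2.06-fold higher in control libraries. The log2 change was -0.84 ± 0.095 (SE), with a 95% interval of -1.07 to -0.61 (limma adjusted p = 2.02e-04). The identity of the main activator transcript differed between the groups: PLAU made up 14.9%, 18.3% and 15.9% of the summed PLAU and PLAT level in control libraries and 99.2%, 99.3% and 99.2% in shSETD2 libraries.

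Of the members that inhibit the activators, only SERPINE2 (ENSG00000135919.12_3, chromosome 2, 224839829 to 224904036, minus strand) was listed. It encodes protease nexin, which inhibits thrombin, urokinase and plasmin. Its level was 2.89, 2.88 and 2.83 FPKM in control and 5.75, 5.30 and 4.98 FPKM in shSETD2 libraries. The groups did not overlap. The means were 2.87 ± 0.0314 FPKM and 5.34 ± 0.387 FPKM (SD, n = 3 each), a 1.86-fold rise (log2 change 0.71 ± 0.061 SE, limma adjusted p = 5.36e-05). SERPINE2 therefore rose far less than PLAU in level. The summed level of PLAU and PLAT was 2.32 to 2.82 times that of SERPINE2 in control libraries and 68.8 to 78.6 times in shSETD2 libraries. Other inhibitors of the activators, such as SERPINI1 described below, are not part of this ratio.

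F3 (ENSG00000117525.13_2, chromosome 1, 94994781 to 95007356, minus strand) encodes tissue factor, the membrane receptor that starts coagulation. Its level was 1.79, 1.64 and 2.14 FPKM in control and 4.03, 3.70 and 4.17 FPKM in shSETD2 libraries. All shSETD2 libraries exceeded all control libraries, although F3 had the widest control spread of the tested members (coefficient of variation 13.9%). The means were 1.85 ± 0.257 FPKM and 3.97 ± 0.241 FPKM (SD, n = 3 each), a 2.14-fold rise (log2 change 0.80 ± 0.083 SE, limma adjusted p = 1.32e-04).

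TFPI (ENSG00000003436.15_3, chromosome 2, 188328957 to 188430487, minus strand) encodes the main inhibitor of the tissue factor complex. Its level was 1.94, 2.06 and 1.88 FPKM in control and 21.4, 24.2 and 21.8 FPKM in shSETD2 libraries. The groups stood well apart. The means were 1.96 ± 0.0874 FPKM and 22.5 ± 1.49 FPKM (SD, n = 3 each), an 11.5-fold rise with a log2 change of 2.98 (95% interval 2.84 to 3.13, limma adjusted p = 9.99e-08). TFPI rose more than the factor it inhibits, and the ratio of TFPI to F3 was 0.881 to 1.26 in control libraries and 5.23 to 6.53 in shSETD2 libraries.

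TFPI2 (ENSG00000105825.11_2, chromosome 7, 93514709 to 93520303, minus strand) was the second most changed member. Its level was 0.888, 0.991 and 0.947 FPKM in control and 120.2, 129.7 and 123.3 FPKM in shSETD2 libraries. The groups were separated by more than 100 FPKM in every pair of libraries. The means were 0.942 ± 0.0517 FPKM and 124.4 ± 4.83 FPKM (SD, n = 3 each), a 132-fold rise (log2 change 6.01 ± 0.048 SE, limma adjusted p = 4.60e-09). The ratio of TFPI2 to TFPI was 0.457 to 0.503 in control and 5.37 to 5.65 in shSETD2 libraries. Of the 2 members that changed most, PLAU rose further, and the ratio of TFPI2 to PLAU was 0.745 to 0.812 in control and 0.307 to 0.353 in shSETD2 libraries.

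THBD (ENSG00000178726.6_2, chromosome 20, 23026270 to 23030378, minus strand) was the weakest member. Its level was 0.285, 0.0674 and 0.192 FPKM in control and 0.0300, 0.0282 and 0.0169 FPKM in shSETD2 libraries. The groups did not overlap, but the mean was below the 0.5 FPKM minimum for testing, so no fold change was taken. With no minimum, the log2 change was -0.20 ± 0.073 (SE), at a limma adjusted p of 0.0422 over 15775 genes. The number of fragments behind these values is unknown.

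**Figure D2:**
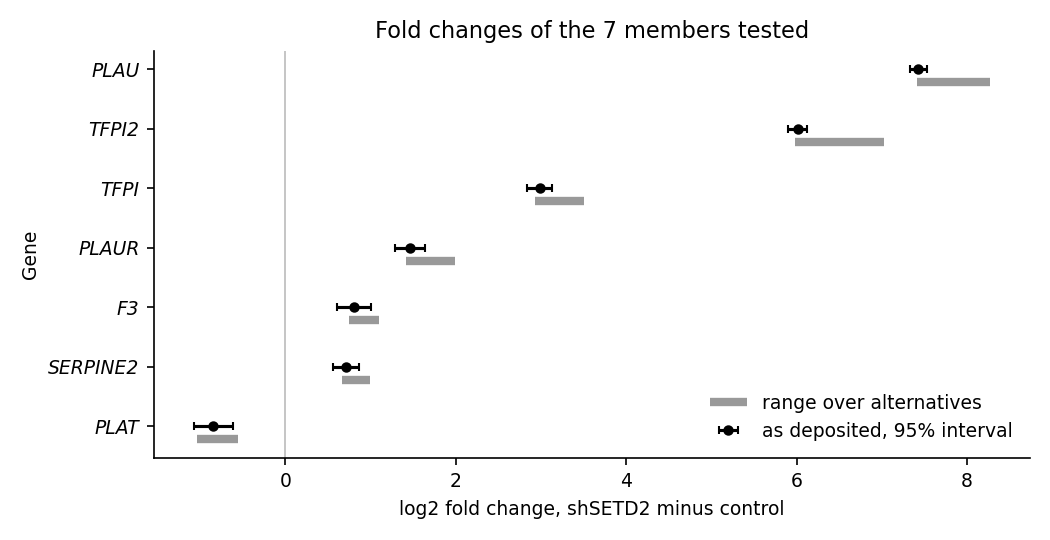
Log2 fold change of the 7 tested members (shSETD2 minus control, on log2(FPKM + 1)), as points with 95% intervals, and grey bars for the range over the alternative settings. PLAU, TFPI2, TFPI, PLAUR, F3 and SERPINE2 lie above 0 and PLAT below 0 over the whole range.

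The order of the members within a library therefore changed. In control libraries it was PLAT, SERPINE2, TFPI, F3, PLAUR, PLAU, TFPI2 and THBD, from high to low, with only TFPI and F3 overlapping in range. In shSETD2 libraries it was PLAU, TFPI2, TFPI, PLAUR, SERPINE2, F3, PLAT and THBD, with only PLAUR and SERPINE2 overlapping. The summed level of the 8 members was 17.2, 15.8 and 17.4 FPKM in control libraries and 552.0, 539.0 and 551.8 FPKM in shSETD2 libraries. PLAU took 6.94%, 7.72% and 7.26% of that sum in control and 71.0%, 68.2% and 70.4% in shSETD2 libraries. The share of TFPI2 went from between 5.17% and 6.26% to between 21.8% and 24.1%. The exact two-sided permutation test of 3 libraries against 3 cannot give a p below 0.1, which was the p of each of the 8 members.

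**Figure D3:**
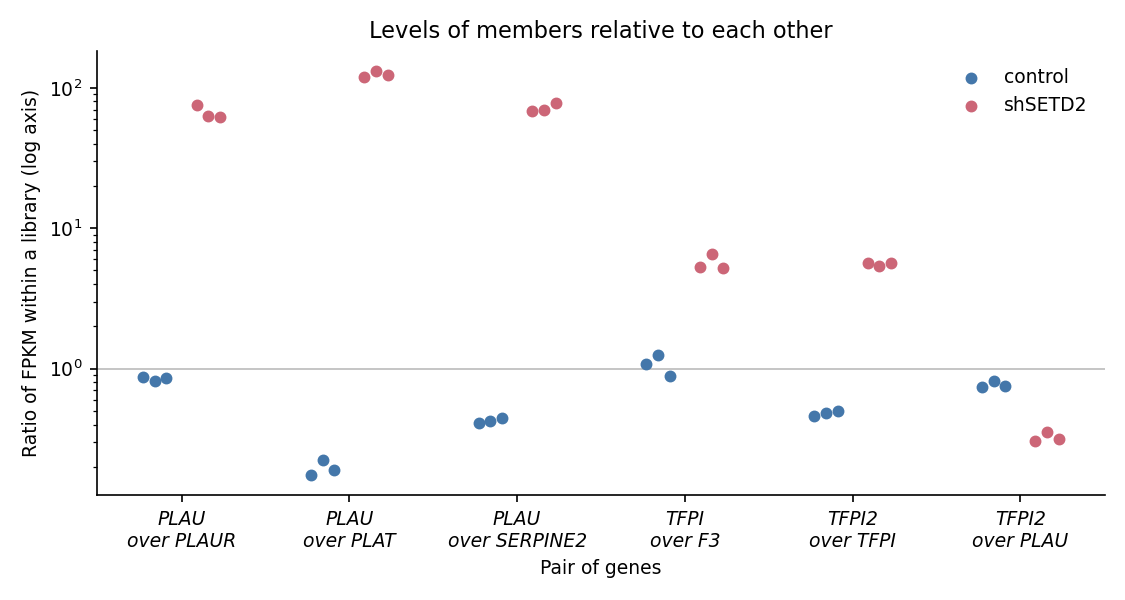
Ratios of member levels in each library, on a log axis, for control and shSETD2 libraries. The ratio of PLAU to PLAUR lies below 1 in the control libraries and above 60 in the shSETD2 libraries, and the ratio of TFPI2 to PLAU is the one that is lower in shSETD2 libraries.

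The 250 bases upstream of the RefSeq start sites (build GRCh38.p14, unlike the GRCh37 positions above) are shown for 4 members that rose, because they hold or lack the AP-1 motif TGANTCA, bound by Fos and Jun proteins. Both strands were searched, capitals mark a match, and each sequence is read 5′ to 3′ on the strand of the gene. The windows are chr10:73910882-73911131 on the plus strand for PLAU, and chr19:43670170-43670419, chr1:94541760-94542009 and chr7:93890754-93891003 on the minus strand for PLAUR, F3 and TFPI2.
PLAU: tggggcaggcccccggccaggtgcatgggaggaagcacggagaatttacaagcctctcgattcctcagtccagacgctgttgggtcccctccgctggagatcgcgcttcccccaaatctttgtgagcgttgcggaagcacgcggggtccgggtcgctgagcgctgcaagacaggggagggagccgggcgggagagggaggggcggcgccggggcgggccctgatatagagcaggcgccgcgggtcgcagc
PLAUR: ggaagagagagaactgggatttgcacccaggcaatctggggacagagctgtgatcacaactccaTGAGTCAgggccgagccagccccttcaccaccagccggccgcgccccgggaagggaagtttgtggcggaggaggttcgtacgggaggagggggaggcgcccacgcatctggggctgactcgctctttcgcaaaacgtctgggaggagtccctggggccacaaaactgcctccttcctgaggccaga
F3: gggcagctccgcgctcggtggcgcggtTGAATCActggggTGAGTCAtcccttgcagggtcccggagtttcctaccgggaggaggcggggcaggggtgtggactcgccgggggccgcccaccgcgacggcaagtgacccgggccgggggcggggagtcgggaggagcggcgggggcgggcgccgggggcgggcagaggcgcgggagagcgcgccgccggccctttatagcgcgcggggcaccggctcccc
TFPI2: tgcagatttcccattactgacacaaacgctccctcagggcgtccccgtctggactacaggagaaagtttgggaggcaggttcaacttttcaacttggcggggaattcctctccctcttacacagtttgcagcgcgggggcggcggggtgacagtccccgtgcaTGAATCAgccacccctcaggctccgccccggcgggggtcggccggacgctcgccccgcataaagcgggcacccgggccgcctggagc
F3 held 2 matches, 223 and 210 bases before the start, PLAUR held 1 at 186 bases and TFPI2 held 1 at 87 bases. The unlisted SERPINB2 also held 1, at 102 bases. No match was found in the windows of either PLAU start, of TFPI or of SERPINE2. For comparison, 6.57% of 35093 windows of the same length held the motif. The motif of NF-kB was matched in TFPI2, 152 bases before the start, and in 5.2% of all windows. The GC box GGGCGG had 3 matches in the PLAU window shown, 4 in that of F3 and 2 in that of TFPI2, and 42.6% of all windows held at least 1. The GC content was 68.8% for the PLAU window, 63.2% for PLAUR, 78.0% for F3 and 64.4% for TFPI2, against a median of 58.0% over all windows. Below that median were TFPI (38.4%), the other PLAU start (46.8%), 1 SERPINE2 start (53.2%) and SERPINB2 (37.2%). The windows of PLAUR, TFPI, SERPINB2 and the other PLAU start held no GC box. The motifs searched did not overlap one another in these windows. Windows were found for 7 of the 9 members, not for PLAT and THBD.

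Genes beside the members were compared next, since position was not used to choose them. C10orf55 overlaps PLAU on the opposite strand and went from 0.0282 ± 0.0244 FPKM to 2.62 ± 0.592 FPKM (SD, n = 3 each; log2 change 1.80, limma adjusted p = 2.05e-05). The kit was labelled stranded but the strand setting of the counting is not given in the sources used here, so reads of C10orf55 and of PLAU cannot be told apart. The nearest genes that do not overlap PLAU were CAMK2G, 34.6 kb away (log2 change -0.18, adjusted p = 0.0309), and VCL, 77.7 kb away, which encodes vinculin of focal adhesions (log2 change 1.03, adjusted p = 2.15e-06). GNG11, a G protein gamma subunit gene 30.7 kb from TFPI2, went from 0.536 ± 0.112 FPKM to 30.03 ± 1.24 FPKM (log2 change 4.34, limma adjusted p = 4.32e-08). GNGT1, which overlaps TFPI2 on the opposite strand, was lower, at 1.30 ± 0.199 FPKM against 0.5998 ± 0.127 FPKM (limma adjusted p = 2.13e-03).

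Beside the lower member, AP3M2 lies 3.56 kb from PLAT and fell from 7.41 to 2.18 FPKM (log2 change -1.41, limma adjusted p = 2.77e-06). ABCD3, 10.6 kb from F3, fell by 1.06 on the log2 scale, against the rise of F3 (limma adjusted p = 3.08e-06). Within 250 kb of each start, the tested genes called higher and lower were 6 and 7 of 17 for PLAU, 2 and 10 of 13 for PLAUR, 0 and 4 of 5 for PLAT, 1 and 1 of 3 for SERPINE2, 1 and 1 of 2 for F3, and 2 and 1 of 3 for TFPI2. Over all genes tested, 26.8% were called higher and 51.8% lower. No tested gene lay within that distance of THBD or TFPI.

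**Figure D4:**
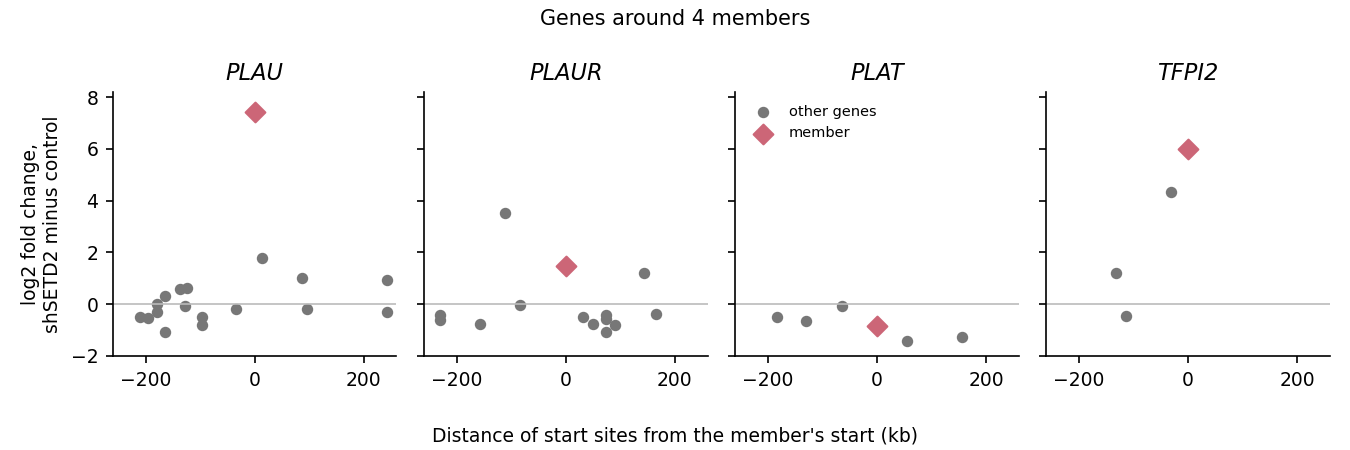
Log2 fold change of tested genes by distance of their start from the start of PLAU, PLAUR, PLAT and TFPI2, in kb, with the member as a diamond. PLAU and TFPI2 stand above all tested genes within 250 kb, 1 gene near PLAUR rose more than PLAUR (3.53), and all tested genes around PLAT lie below 0.

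The 6 lists of 87 genes around these members, also chosen with earlier results of these data known, were then compared. Of these genes 45 were listed and 42 tested: 22 were higher, 16 lower and 4 not called, and their median log2 change was 0.38 against -0.29 for all genes tested. The higher share of the called genes was 57.9%, and it became 70.6% (24 higher, 10 lower) with median ratio scaling and 69.7% (23 higher, 10 lower) with quantile normalization. The same share over all genes was 34.1%, 50.3% and 44.5%, so it rose under these scalings too. The minimum for testing was set on the mean over all libraries. List genes of both directions, such as THBS1 and HTRA1, passed it only through the group where they were high. With no minimum 22 of 45 list genes were higher and 16 lower, and with a minimum of 5 FPKM 18 of 25 and 5. Of 16 plasminogen receptors and urokinase receptor partners, 12 were higher, 3 lower and 1 not called, with a median of 1.59. The lists can be read against the 26.8% of all genes called higher and 51.8% called lower. The integrin alpha chain ITGA3 went from 1.42 ± 0.133 to 131.7 ± 5.68 FPKM (log2 change 5.78, adjusted p = 9.21e-09), and ITGB3, of the vitronectin receptor, from 0.398 ± 0.113 to 13.02 ± 0.611 FPKM (log2 change 3.33, adjusted p = 1.56e-07). The plasminogen-binding pair ANXA2 and S100A10 also rose. ANXA2 went from 6.70 ± 0.391 to 69.8 ± 1.89 FPKM (log2 change 3.20, adjusted p = 4.30e-08) and S100A10 from 31.8 ± 2.17 to 169.1 ± 15.3 FPKM (log2 change 2.38, adjusted p = 7.61e-07). LRP1, which clears urokinase from the surface, was at 7.94 ± 0.175 and 8.66 ± 0.490 FPKM and was not called (log2 change 0.11, adjusted p = 0.103). LRP1 was called higher with upper quartile scaling (0.19, limma adjusted p = 0.0174) and quantile normalization (0.21, adjusted p = 0.013). It was also called higher with median ratio scaling (0.43, limma adjusted p = 5.05e-04) and without shSETD2 replicate 2 (0.15, adjusted p = 0.0264). Of this list 3 genes were lower: the lipoprotein receptor VLDLR (log2 change -1.25), its chaperone LRPAP1 (-0.58) and the plasminogen receptor PLGRKT (-0.46, not called with median ratio scaling).

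PLG, the plasmin precursor, was not listed. Of the 10 genes on the fibrinolysis list, which includes PLG, 2 were tested and both were lower, as were 51.8% of all genes. The serpin SERPINI1, an inhibitor of PLAT, went from 2.84 ± 0.0896 to 0.301 ± 0.121 FPKM (log2 change -1.57, limma adjusted p = 5.12e-06), and F12, which starts contact activation, had a log2 change of -0.32 (adjusted p = 0.0112) that was 0.05 with quantile normalization. The list of pericellular proteases, Kunitz inhibitors and related genes named 17 genes, of which 6 were listed and 5 tested. Of these 5, 2 were higher, 2 lower and 1 not called, against 26.8% and 51.8% of all genes. The protease PRSS22 went from 0.0206 ± 0.0356 to 4.83 ± 0.542 FPKM and the Kunitz inhibitor SPINT2 from 5.02 ± 0.277 to 16.9 ± 3.11 FPKM. HTRA1, a serine protease of the matrix, went from 5.46 ± 0.527 to 0.0783 ± 0.0197 FPKM, and MST1, among the related genes of this list, had a log2 change of -0.97. Of 12 clade B serpins 4 were listed and tested, 3 of them higher and 1 lower, against 26.8% and 51.8% of all genes. SERPINB8 (log2 change 2.77), SERPINB6 (0.64) and SERPINB1 (0.48) were higher and SERPINB9, the inhibitor of granzyme B, was lower (-1.08).

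On the coagulation side, 5 of 13 tested genes were higher, 6 lower and 2 not called, with a median log2 change of -0.16. These were 38.5% and 46.2% of the list, against 26.8% and 51.8% of all genes. F2, F7 and F10, the genes of prothrombin and of the factors that act with tissue factor, were not listed. THBS1, which encodes the matrix protein thrombospondin, went from 0.0677 ± 0.0152 to 36.6 ± 0.999 FPKM (log2 change 5.14, limma adjusted p = 7.05e-09), and PROCR, the receptor of protein C, from 8.36 ± 0.728 to 36.7 ± 0.534 FPKM (log2 change 2.01, adjusted p = 5.25e-07). GAS6, a ligand of TAM receptors, had a log2 change of 0.84 (adjusted p = 1.70e-05). The 3 fibrinogen chains FGA, FGB and FGG were listed at 0 in all shSETD2 libraries and reached 2.55, 4.06 and 2.19 FPKM in control replicate 2, against at most 0.541, 0.667 and 0.604 FPKM in the other control libraries. Without control replicate 2 only 1 coagulation gene, VKORC1 (named after its values were seen, log2 change -0.93), was called lower, and without shSETD2 replicate 1, 2 or 3 the number was 2, 3 and 2. It was 1 with quantile normalization and 2 with median ratio scaling. Of 4 protease-activated receptors 2 were listed and tested, and both were lower, as were 51.8% of all genes. F2RL2 and F2RL3 were not listed. F2R, a receptor of thrombin, went from 9.37 ± 0.885 to 0.704 ± 0.107 FPKM (log2 change -2.60, limma adjusted p = 6.71e-07). F2RL1, a receptor of the tissue factor complex, went from 5.61 ± 0.488 to 0.334 ± 0.0337 FPKM (log2 change -2.31, limma adjusted p = 4.95e-07).

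**Figure D5:**
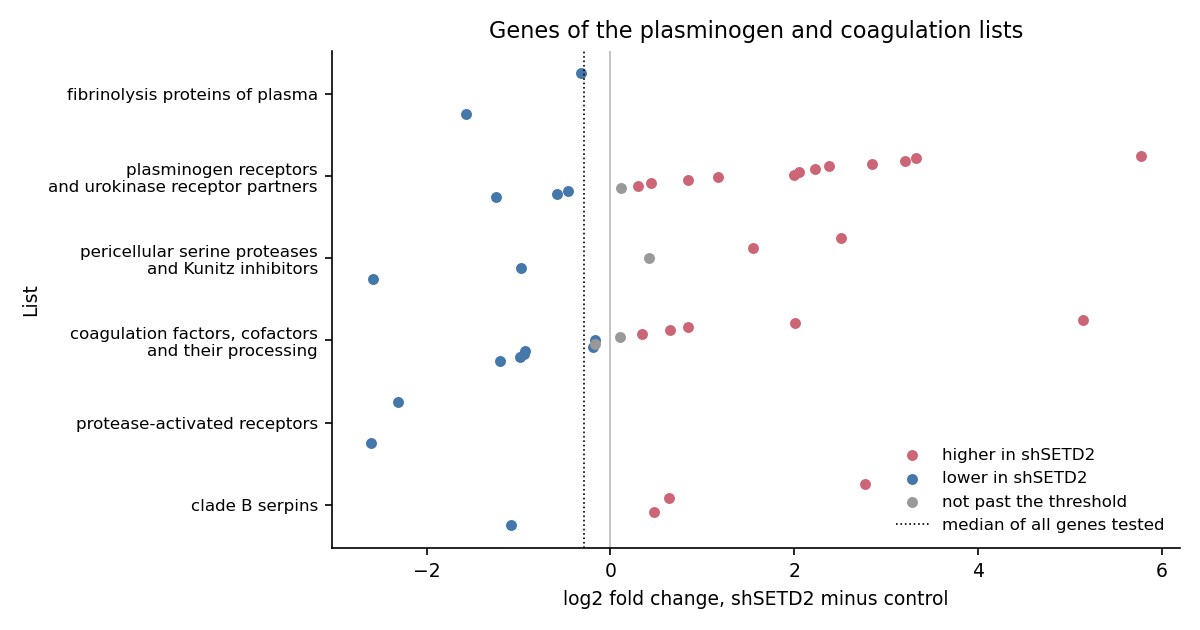
Log2 fold change of the tested genes of the 6 lists, shSETD2 minus control on log2(FPKM + 1), with calls marked by colour and a dotted line at the median of all genes tested (-0.29). ITGA3 and THBS1 have the largest rises of their lists, and F2R and F2RL1 lie below -2.

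The genes with a level pattern nearest to 3 members were taken by the root mean square difference of log2(FPKM + 1) over the 6 libraries. For PLAU these were PADI2 (difference 0.278, 1.43 and 297.1 FPKM in control and shSETD2 libraries) and PLP2 (0.525, 2.31 and 278.4 FPKM). For PLAUR they were MAP3K14 (0.0949) and TRADD (0.109), and for F3 they were N4BP3 (0.106) and ARHGEF17 (0.112). This measure reflects level and direction only.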

How the data were processed

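Total RNA of H1650 cells was extracted with TRIzol and sequenced on an Illumina HiSeq after a stranded library kit, per the labels. The authors mapped the reads to hg19 with HISAT2 and made the FPKM of each gene with Ballgown, and deposited these values. Tool versions are not given in the sources used here. A second deposited table holds the authors' own comparison (fold changes, p-values and q-values) and was not used. At most 29.0% of low values were whole multiples of one step (tolerance 0.05), so read depth is unknown and no counting error can be given. Every one of the 6 library columns was matched by name, 0 columns were left over, and no 2 libraries held identical values.

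From the deposited FPKM, log2(FPKM + 1) was tested with limma 3.58.1 (lmFit, eBayes with intensity trend) in R 4.3.3 over 14068 genes with mean FPKM of at least 0.5, with Benjamini-Hochberg adjustment over all of them at 0.05. The log2 scale with pseudocount 1 understates changes of low genes. The script was tested on simulated data. Counts of members, neighbours and list genes were set beside the share of all genes called. Python 3.11.15 with pandas 2.3.3 and numpy 2.4.6 made the summaries, and matplotlib 3.10.9 the plots. Upstream sequences came from RefSeq tables of GRCh38.p14. The 9 members, the 6 gene lists and the marker lists were chosen with earlier results of these data known. Named from the lists were the 3 higher and 3 lower called genes with the largest change and no overlap between groups, with PLG, F2, F7, F10, F2R, F2RL1, LRP1, ANXA2, S100A10 and THBS1 always. For PLAU, PLAUR and F3, the 2 protein-coding genes of nearest level pattern were named. Some genes of these pathways are not reported here.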

Additional observations from a re-analysis of the deposited data

How the results depend on the processing

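The 7 tested members kept their direction and their call under every alternative in which they could be tested (15 for PLAU, TFPI and TFPI2 and 14 for the others): pseudocounts of 0.1 and 0.01, other minimum levels, scaling by median ratio, quantiles or upper quartile, a fit without the intensity trend, a replicate block, and leaving out each library in turn. The log2 change ranged from 7.41 to 8.27 for PLAU, 1.42 to 1.99 for PLAUR, -1.04 to -0.556 for PLAT, 0.667 to 0.993 for SERPINE2, 0.747 to 1.10 for F3, 2.93 to 3.51 for TFPI and 5.98 to 7.03 for TFPI2, and the highest adjusted p by limma was 1.82e-03, for PLAT. With a minimum mean of 5 FPKM fewer genes were tested, and 3 members were called higher and 0 lower. With no minimum THBD was tested too and 2 members were called lower. Of the list genes, 5 were called lower with the minimum of 5 FPKM, 10 with quantile normalization and 10 with median ratio scaling, against 16 as reported.

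With the replicate number as a block, 6 members were called higher and 1 lower, and 22 list genes higher and 17 lower. Libraries sharing a number did not deviate together (correlations -0.0237, 0.0177 and -0.00766 over 14068 genes, and 0 of 6 libraries correlated best with its own number). No pairing by number was seen, but 3 libraries a group cannot exclude it. Depth is unknown and 3 libraries a group limit the precision. Values near 0, such as those of THBD, cannot be set against a counting floor.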
